A study of Mus musculus with 4 samples.

Results

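The Reg genes encode small secreted proteins with a C-type lectin fold. The 7 members examined were Reg1, Reg2, Reg3a, Reg3b, Reg3d, Reg3g and Reg4, taken by symbol from 20940 genes of the mouse assembly mm9. Reads were available from 4 libraries of C57BL/6 mice aged 9 to 10 weeks that had received no treatment. For each tissue, small intestine or colon, there was 1 library made by fragmenting cDNA from polyadenylated RNA (cDNA fragmented) and 1 made by fragmenting RNA directly (RNA fragmented, labelled as depleted of ribosomal RNA, whereas the methods of the study describe enrichment of polyadenylated RNA). According to those methods the tissue was whole jejunum or distal colon and the mice were kept free of specific pathogens. The study describes both tissues as coming from the same animals, but the labels do not say which or how many mice a library came from, so no pairing was used. With 1 library per tissue and protocol there was no replicate within a protocol. The protocols were not treated as replicates of each other, no test between tissues was run, and all intervals below cover counting error only.

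Reg3b and Reg3g are antibacterial lectins. Reg3g binds the cell wall of Gram-positive bacteria and helps to keep them away from the small intestinal surface, and both genes are known to be induced in epithelium by microbial signals through MyD88 and by the cytokine IL-22 through STAT3. Reg1 and Reg2 were first described in the pancreas, where acinar cells make and secrete them, and Reg4 is known from cells deep in the colonic crypt. In whole tissue, fewer cells that make a transcript and less of it per cell cannot be told apart.

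All 7 genes were made of 6 exons, and 6 of them lay within 1 stretch of chromosome 6, with Reg2, Reg1, Reg3b and Reg3a on the plus strand and Reg3d and Reg3g on the minus strand. Reg4 lay on chromosome 3. The fourth exon, which is coding, had 138 bases in all 7 genes, so that it could be set side by side without gaps. It is shown because it lets a reader see how far the members differ. The exons, read from the NCBIM37 (mm9) genome 5′ to 3′ on the strand of the gene, carry capitals where a base differs from Reg3b.
Reg3b: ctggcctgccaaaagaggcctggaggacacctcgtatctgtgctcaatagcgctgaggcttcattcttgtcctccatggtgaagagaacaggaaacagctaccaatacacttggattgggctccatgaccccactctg
Reg3g: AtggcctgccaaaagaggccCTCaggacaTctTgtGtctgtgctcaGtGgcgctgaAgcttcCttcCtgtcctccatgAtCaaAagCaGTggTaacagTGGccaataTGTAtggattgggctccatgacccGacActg
Reg3a: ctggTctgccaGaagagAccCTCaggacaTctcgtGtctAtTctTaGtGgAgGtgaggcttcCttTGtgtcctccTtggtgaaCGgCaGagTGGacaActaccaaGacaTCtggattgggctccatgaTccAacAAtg
Reg3d: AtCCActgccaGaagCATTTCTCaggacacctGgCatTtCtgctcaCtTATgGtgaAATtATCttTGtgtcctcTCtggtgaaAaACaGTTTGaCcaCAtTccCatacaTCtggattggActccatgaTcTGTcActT
Reg1: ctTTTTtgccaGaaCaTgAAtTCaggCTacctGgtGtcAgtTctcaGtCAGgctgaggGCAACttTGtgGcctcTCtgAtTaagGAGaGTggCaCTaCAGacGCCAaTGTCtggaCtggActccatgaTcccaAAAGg
Reg2: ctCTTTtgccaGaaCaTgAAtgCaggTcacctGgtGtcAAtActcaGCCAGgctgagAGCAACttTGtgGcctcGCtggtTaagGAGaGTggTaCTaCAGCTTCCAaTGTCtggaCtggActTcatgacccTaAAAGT
Reg4: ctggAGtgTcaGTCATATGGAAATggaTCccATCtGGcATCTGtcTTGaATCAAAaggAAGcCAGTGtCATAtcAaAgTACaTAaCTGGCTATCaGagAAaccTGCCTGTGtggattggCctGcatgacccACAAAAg
These exons lie at chr6:78322082-78322219 (Reg3b), chr6:78417470-78417607 (Reg3g), chr6:78332208-78332345 (Reg3a), chr6:78327104-78327241 (Reg3d), chr6:78377319-78377456 (Reg1), chr6:78356494-78356631 (Reg2) and chr3:98035071-98035208 (Reg4). Compared with Reg3b, 28 bases differed in Reg3g, 34 in Reg3a, 54 in Reg3d, 59 in Reg1, 63 in Reg2 and 84 in Reg4. The coding sequences were also aligned pairwise, and identity was counted over aligned bases, with gaps left out. The most alike members were Reg1 and Reg2 with 82.5% identical bases, followed by Reg3b and Reg3g with 76.4%, Reg3a and Reg3b with 74.7% and Reg3a and Reg3g with 74.1%. Reg4 shared 59.2% to 63.2% with each of the others. Leaving out gaps raises such values, and over exon 4, set side by side without gaps, Reg4 shared 38.4% to 43.5%.

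Reads that could have come from more than 1 member had been discarded before deposition, so the members were searched for such places. Of the 35-base windows inside the exons, 8 of 563 in Reg3b and 8 of 577 in Reg3g had a place in the other gene within 3 color mismatches. Reg4 had 4 of 817 such windows, all shared with Med18. In Reg1, Reg2, Reg3a and Reg3d the search found 0 windows that resembled any other exon. The stretch common to Reg3b and Reg3g lies in the coding part of exon 2 (chr6:78321220-78321261 and chr6:78418494-78418535 in mm9). It is given here on the strand of the gene, with the 4 differing bases in capitals.
Reg3b: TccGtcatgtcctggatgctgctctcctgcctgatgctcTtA
Reg3g: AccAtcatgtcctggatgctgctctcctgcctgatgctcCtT
In the cDNA fragmented small intestine library 347 reads were placed in these windows of Reg3b and 3495 in the 16 windows around them, and in Reg3g 205 and 1474. The loss of reads there concerned 1.42% of the windows of Reg3b and 1.39% of those of Reg3g.

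RefSeq promoters (GRCm38.p6, 250 bases before to 50 bases after the start) were present for all 7 genes. The letters TATAAA stood on the strand of the gene at position -29 of Reg3b, -27 of Reg3g, -30 of Reg1 and -30 of Reg2, and were not in the windows of Reg3a, Reg3d and Reg4. On either strand they were found in 4 of 7 members and in 13.6% of all 32851 promoters. The letters TTCNNNGAA, a palindrome read by STAT factors, were found in the windows of Reg3b (position -129) and Reg3d (position -238) and in 8.30% of all promoters. Stretches from 50 bases before to 10 bases from the start are shown for the 4 promoters with TATAAA (in capitals). Reg3b and Reg3g share a run of 29 identical bases there, part of it past the start. Other pairs were not compared in this way, and a link to levels was not tested.
Reg3b: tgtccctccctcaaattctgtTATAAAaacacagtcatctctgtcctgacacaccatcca
Reg3g: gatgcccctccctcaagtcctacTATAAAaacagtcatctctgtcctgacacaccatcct
Reg1: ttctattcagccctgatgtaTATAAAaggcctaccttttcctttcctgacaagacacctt
Reg2: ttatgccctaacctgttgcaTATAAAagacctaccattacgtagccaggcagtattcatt
These lie at chr6:78370835-78370894 (Reg3b, plus strand), chr6:78468865-78468924 (Reg3g, minus strand), chr6:78425933-78425992 (Reg1, plus strand) and chr6:78405105-78405164 (Reg2, plus strand) of GRCm38.p6. A match is a description of letters and not of binding.

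The libraries held 22484041 (small intestine) and 24798934 (colon) uniquely placed reads by cDNA fragmentation, and 2035386 and 3478387 by RNA fragmentation. For a gene with 1000 exon bases, 3 reads corresponded to 0.133 and 0.121 RPKM in the former and to 1.47 and 0.863 RPKM in the latter. RPKM is the number of reads per 1000 exon bases and 1000000 uniquely placed reads and so corrects for length. The 7 members have 692 to 1021 exon bases. Genes of such length stood higher by cDNA than by RNA fragmentation relative to other genes, so a rank among all genes holds for its protocol only. Markers of enterocytes had higher RPKM in small intestine (8 of 8 genes at least 3 times the RPKM of the other tissue plus 1, in each protocol) and those of colonocytes in colon (5 of 5), a rule that 2.15% to 4.81% of all genes met in a given direction and protocol. The Paneth cell list, which marks antibacterial cells of the small intestinal crypt, summed to 30421 RPKM in small intestine and 513 RPKM in colon by cDNA fragmentation and to 4251 and 357 RPKM by RNA fragmentation. By the same rule 5 of its 7 genes were higher in small intestine in each protocol. Most of the colon sums came from Ang4, named here after its values were seen (1293 and 443 RPKM by cDNA, 238 and 291 RPKM by RNA fragmentation).

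The Reg family took a larger share of small intestinal than of colonic RNA in both protocols. By cDNA fragmentation 548082 of the uniquely placed reads of small intestine, or 2.44%, fell on the 7 genes, compared with 88925 reads or 0.359% in colon. By RNA fragmentation the shares were 0.175% (3568 reads) and 0.0199% (692 reads). Reg3b and Reg3g together made up 95.6% of the summed RPKM of the family in small intestine by cDNA fragmentation and 71.8% by RNA fragmentation. In colon the make-up depended on the protocol, since Reg4 held 79.8% of the sum by cDNA fragmentation, whereas Reg3b and Reg3g held 76.6% and Reg4 21.7% by RNA fragmentation.

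**Figure D1:**
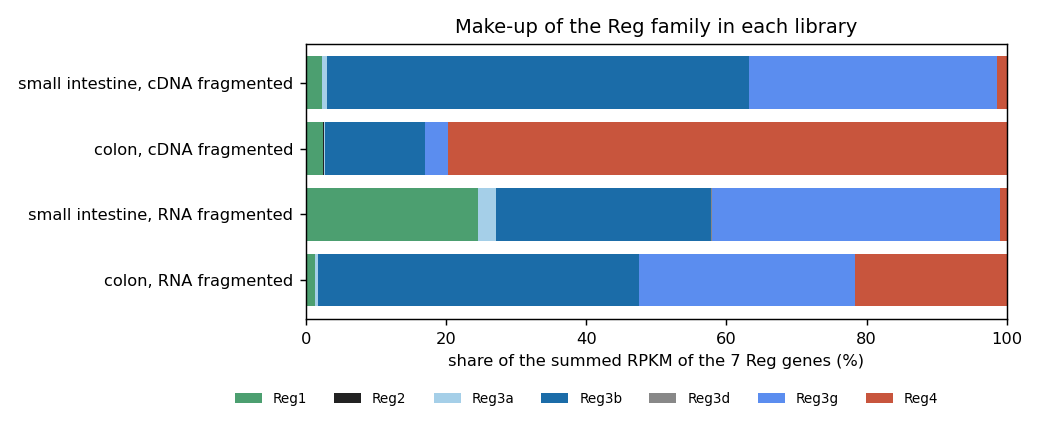
Share of each Reg gene (%) in the summed RPKM of the 7 genes, with 1 bar per library. Reg3b and Reg3g fill 95.6% of the bar of small intestine by cDNA fragmentation, and Reg4 fills 79.8% of the bar of colon by cDNA fragmentation but 21.7% of that by RNA fragmentation.

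A gene was called higher in a tissue when its RPKM there was at least 3 times the RPKM of the other tissue plus 1, the rule used in the study. By cDNA fragmentation 4 of the 7 members were higher in small intestine (Reg1, Reg3a, Reg3b and Reg3g), against 2.15% of all genes, and 2 were higher in colon (Reg2 and Reg4), against 2.53% of all genes. By RNA fragmentation the same 4 members were higher in small intestine, against 2.78% of all genes, and 0 of 7 were higher in colon, against 4.81% of all genes. Under median-of-ratios scaling the same members passed, and the shares of all genes were 2.80% (small intestine) and 1.65% (colon) by cDNA fragmentation and 3.72% and 3.11% by RNA fragmentation. With 1 RPKM added, colon over small intestine had a median on the log2 scale of -3.01 over the members and 0.04 over all genes by cDNA fragmentation, and -2.64 and 0.00 by RNA fragmentation. Reg3d was past the rule in neither protocol. With distinct start points counted in place of reads, Reg3a (small intestine) and Reg2 (colon) still passed by cDNA fragmentation and the other 4 did not, a count that is bounded by the length of a gene (1157 start points of Reg3b in small intestine and 960 in colon).

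**Figure D2:**
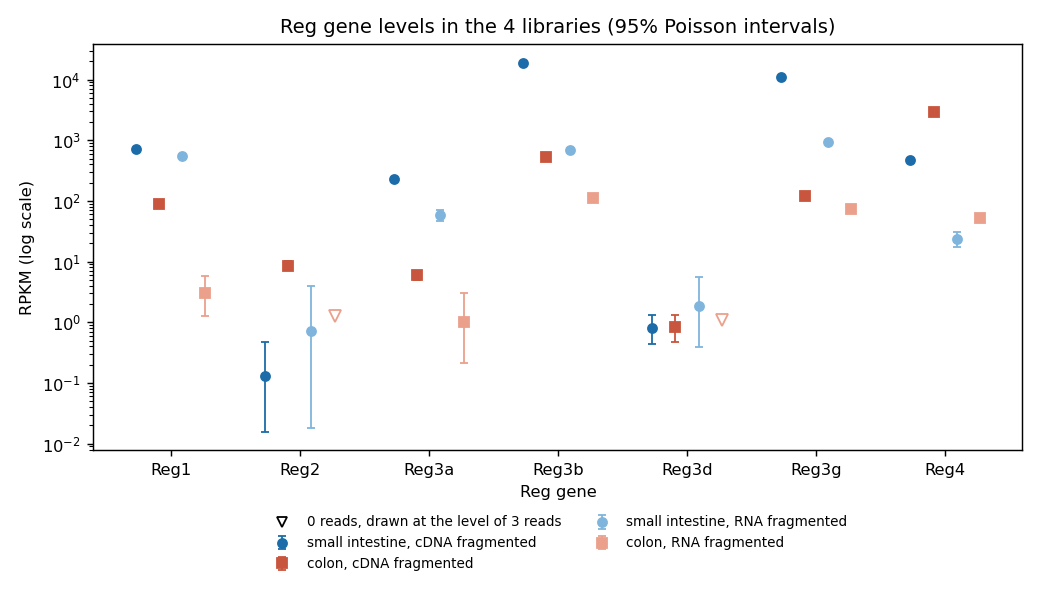
RPKM of each Reg gene (log scale) in the 4 libraries, with 95% Poisson intervals; open triangles stand for 0 reads and are drawn at the level of 3 reads. Reg1, Reg3a, Reg3b and Reg3g lie higher in small intestine (circles) than in colon (squares) in both protocols, and Reg4 lies lower.

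Reg3b, an antibacterial lectin, had the highest level of the family in small intestine by cDNA fragmentation. It was covered by 325503 reads (19074 RPKM, interval 19008 to 19140) in that library, where it ranked 3 of 20940 genes, and by 9902 reads (526 RPKM, rank 216) in colon. By RNA fragmentation it was covered by 1077 reads (697 RPKM, rank 63) in small intestine and 293 reads (111 RPKM, rank 621) in colon. Small intestine was thus the higher tissue in both protocols, and 36.3-fold so by cDNA fragmentation (interval 35.5 to 37.0) compared with 6.28-fold by RNA fragmentation (interval 5.52 to 7.17).

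Reg3g, whose product binds peptidoglycan, followed the same order of libraries. It was covered by 195181 reads (11216 RPKM, rank 6) in small intestine and 2306 reads (120 RPKM, rank 841) in colon by cDNA fragmentation. The RNA fragmented libraries held 1469 reads (932 RPKM, rank 47) and 201 reads (74.7 RPKM, rank 1004). The level in small intestine was 93.4-fold that in colon by cDNA fragmentation (interval 89.6 to 97.3) and 12.5-fold by RNA fragmentation (interval 10.8 to 14.6). For Reg3b and for Reg3g the counting intervals of the protocols do not overlap, and the difference between the tissues was larger by cDNA fragmentation. These intervals take repeated reads as independent and leave out the spread between libraries or mice. A difference between the protocols was therefore not tested.

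The order of this pair turned with the library. Reg3b stood above Reg3g by 1.70-fold (interval 1.69 to 1.71) in small intestine and 4.38-fold (interval 4.18 to 4.58) in colon by cDNA fragmentation, and by 1.49-fold (interval 1.24 to 1.79) in colon by RNA fragmentation. In small intestine by RNA fragmentation Reg3g was the higher gene, by 1.34-fold (interval 1.24 to 1.45). In that library 356 of the 1469 reads of Reg3g, or 24.2%, began at a single position, and in colon by RNA fragmentation 44 of 201 reads (21.9%) did. With the most frequent start point of each gene left out, the ratio of Reg3b to Reg3g in small intestine by RNA fragmentation went from 0.748 to 0.922, and with start points counted in place of reads it was 1.08. The order of the pair in this library therefore depended on how repeated reads were counted. In small intestine by cDNA fragmentation Reg3b had 1157 and Reg3g 1198 start points from 325503 and 195181 reads, on 563 and 577 windows that can be read on either strand and with 3 bases of tolerance at exon ends, so start points were close to their ceiling there and carry no information on the order.

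Reg3a, a further member of the group 3 lectins, was lower than both but had the same direction. It had 4324 reads (230 RPKM) in small intestine and 123 reads (5.93 RPKM) in colon by cDNA fragmentation, and 98 reads (57.5 RPKM) and 3 reads (1.03 RPKM) by RNA fragmentation. The level in small intestine was 38.8-fold higher by cDNA fragmentation (interval 32.4 to 46.8) and 55.8-fold higher by RNA fragmentation (interval 18.6 to 275). Here the intervals of the protocols overlap. Leukocyte markers, which also stood higher in small intestine, summed to 51.5 and 17.2 RPKM in small intestine and colon by cDNA fragmentation (2 of 4 genes called) and to 27.2 and 19.8 RPKM by RNA fragmentation (0 of 4), and their part in the Reg3 ratios was not tested.

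Reg3d, which lies between Reg3b and Reg3a, was near the limit of detection in each library. It had 14 reads (0.796 RPKM) in small intestine and 16 reads (0.825 RPKM) in colon by cDNA fragmentation, a ratio of colon to small intestine of 1.04 (interval 0.474 to 2.29). By RNA fragmentation 3 reads were found in small intestine and 0 reads in colon, where the interval reaches 1.36 RPKM. A difference between the tissues was not detectable at this depth.

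Reg1, first described in pancreatic acinar cells, was higher in small intestine by both protocols. It was covered by 12361 reads (715 RPKM, rank 126) in small intestine and 1673 reads (87.7 RPKM, rank 1080) in colon by cDNA fragmentation. By RNA fragmentation it was covered by 871 reads (556 RPKM, rank 80) in small intestine and by 8 reads (2.99 RPKM, rank 10168) in colon. The level in small intestine was 8.15-fold that in colon in the former (interval 7.74 to 8.58) and 186-fold in the latter (interval 94.0 to 432). For Reg1, unlike Reg3b and Reg3g, the larger ratio was thus that of RNA fragmentation.

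Reg2, the closest relative of Reg1, had more than 2 reads in 1 library only. It had 148 reads on 116 start points (8.62 RPKM) in colon by cDNA fragmentation, compared with 2 reads (0.129 RPKM) in small intestine by the same protocol. By RNA fragmentation it had 1 read in small intestine and 0 reads in colon, where the interval reaches 1.53 RPKM. The ratio of colon to small intestine by cDNA fragmentation was 67.1 (interval 18.3 to 559). The reads of Reg2 in colon were spread over exons 2 to 6, with 11, 39, 50, 23 and 25 reads. The small intestine library with 2 reads of Reg2 held 12361 reads of Reg1, so at most 2 reads of Reg1 can have been placed on Reg2 there.

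Pancreatic acinar genes differed between the libraries and their values are set beside Reg1 and Reg2. Of 29 listed acinar genes 28 were found, and they summed to 475 RPKM in small intestine and 2426 RPKM in colon by cDNA fragmentation, and to 4395 and 529 RPKM by RNA fragmentation. In the same order 15, 6, 7 and 12 of the 28 genes had 0 reads. By cDNA fragmentation 14 acinar genes were higher in colon and 1 in small intestine, and by RNA fragmentation 1 was higher in colon and 17 in small intestine, beside 2.53% and 2.15% of all genes in the former protocol and 4.81% and 2.78% in the latter. In the same order of libraries Cela2a, a pancreatic elastase, was at 0, 271, 787 and 2.81 RPKM. Ctrb1, chymotrypsinogen, was at 0.150, 80.6, 884 and 1.62 RPKM. Cela1 was at 18.3, 544, 496 and 291 RPKM, and Sycn, a protein of zymogen granules, at 1.12, 947, 48.5 and 210 RPKM. Clps, pancreatic colipase, was the exception of the named genes in small intestine by cDNA fragmentation, with 325, 148, 114 and 10.5 RPKM.

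The libraries with high acinar sums were colon by cDNA fragmentation and small intestine by RNA fragmentation. The only library with more than 2 reads of Reg2 was the former. Small intestine by RNA fragmentation had the highest acinar sum of the 4 and held 1 read of Reg2, and 3 reads of Reg2 correspond to 2.13 RPKM there. Reg1 reached 715 RPKM in small intestine by cDNA fragmentation, where 15 acinar genes were at 0, Cela2a among them, and 325 of the 475 RPKM of the acinar sum came from Clps. In colon by RNA fragmentation 291 and 210 of the 529 RPKM came from Cela1 and Sycn, so the order of these low sums rests on a few genes. The high sum of colon by cDNA fragmentation also came largely from them, with 544 and 947 of its 2426 RPKM. Sycn was called higher in colon in both protocols. Of the genes at 0, 6 had 0 reads in all 4 libraries and so do not tell the libraries apart. Reg1 was 29.3-fold higher by cDNA than by RNA fragmentation in colon (interval 14.9 to 68.0), where the acinar sum was also higher by cDNA fragmentation. In small intestine Reg1 was 1.29-fold higher (interval 1.20 to 1.38), and the acinar sum was lower by cDNA fragmentation. Genes of 500 to 1100 exon bases had a median of 2.90 in colon and 3.18 in small intestine for the same ratio. Reg1 lay above 99.3% of them in colon and above 18.8% in small intestine. These genes had at least 100 reads by cDNA and 10 by RNA fragmentation. Reg1 had 8 reads by RNA fragmentation in colon and so lies outside that set. Genes with so few reads by RNA fragmentation are missing from it, so the position of Reg1 in colon can be too high. Relative to the genes of like length in the set Reg1 was low by cDNA fragmentation in small intestine, and high in colon only with that limit. What part of Reg1 and Reg2 came from acinar RNA was not tested. Islet genes, the other pancreatic list, summed to 81.4, 267, 16.9 and 108 RPKM in the order given above, most of it from Gcg (79.4, 206, 16.2 and 102 RPKM), which intestinal endocrine cells also express. Ppy had 0, 650, 0 and 7 reads, and 2 of the 5 islet genes had 0 reads in all 4 libraries.

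**Figure D3:**
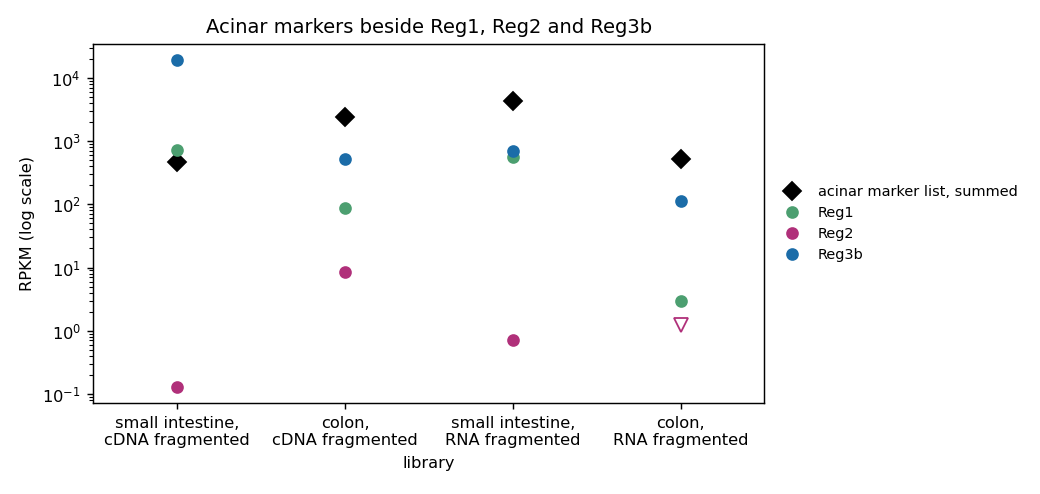
Summed RPKM of 28 acinar genes (diamonds) and RPKM of Reg1, Reg2 and Reg3b (log scale) in the 4 libraries; the open triangle stands for 0 reads and is drawn at the level of 3 reads. The acinar sum is 475 RPKM in small intestine by cDNA fragmentation, where Reg1 is at 715 and Reg3b at 19074 RPKM.

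Reg4, the member that lies outside the cluster, was the only one whose level was higher in colon in both protocols. It was covered by 10697 reads (466 RPKM, rank 210) in small intestine and 74757 reads (2953 RPKM, rank 22) in colon by cDNA fragmentation. The RNA fragmented libraries held 49 reads (23.6 RPKM, rank 2690) and 187 reads (52.7 RPKM, rank 1471). Colon over small intestine was 6.34-fold (interval 6.21 to 6.47) by cDNA fragmentation and 2.23-fold (interval 1.62 to 3.13) by RNA fragmentation, which did not pass the rule. With start points in place of reads the ratio by cDNA fragmentation was 0.990 (interval 0.923 to 1.06), which ends the call, from 1565 and 1623 start points on 817 windows that can be read on either strand, close to the ceiling. The smooth muscle list, which gives a view of the wall of the gut, was also higher in colon (139 and 487 RPKM by cDNA, 144 and 1094 RPKM by RNA fragmentation), and its part in these ratios was not tested. Goblet cell genes summed to 16367 and 38588 RPKM by cDNA fragmentation and to 4553 and 10722 RPKM by RNA fragmentation, and enteroendocrine genes to 263 and 529.5 RPKM and to 116 and 231 RPKM. By the rule (2.15% to 4.81% of all genes), 3 of 9 goblet cell genes were higher in colon by cDNA and 4 by RNA fragmentation. In small intestine 0 were higher, and Muc2 was not found. Of 8 enteroendocrine genes 3 and 1 were higher in colon, and 1, Gip, was higher in small intestine in each protocol. The part of these cells was not tested either.

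**Figure D4:**
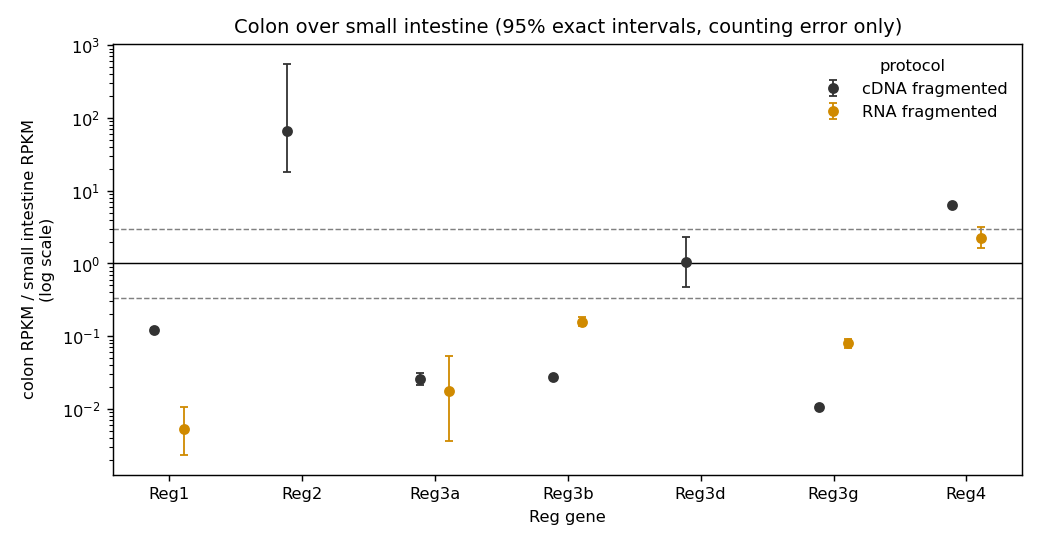
Ratio of colon to small intestine RPKM (log scale) of each Reg gene in both protocols, with 95% exact intervals; dashed lines mark 3-fold in either direction, and genes with 0 reads in a library have no point. Reg1, Reg3a, Reg3b and Reg3g lie below 1 in both protocols, and Reg4 lies at 6.34 and 2.23.

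Within a library most neighbours in the order of levels differed by more than counting error. The order was Reg3b, Reg3g, Reg1, Reg4, Reg3a, Reg3d and Reg2 in small intestine and Reg4, Reg3b, Reg3g, Reg1, Reg2, Reg3a and Reg3d in colon by cDNA fragmentation, and all neighbours differed. By RNA fragmentation the order in small intestine was Reg3g, Reg3b, Reg1, Reg3a, Reg4, Reg3d and Reg2, of which Reg3d and Reg2 did not differ beyond counting error. The order of Reg3g and Reg3b there depended on how repeated reads were counted, as described above. In colon it was Reg3b, Reg3g, Reg4, Reg1 and Reg3a, followed by Reg2 and Reg3d with 0 reads. Reg1 and Reg3a did not differ there (ratio 2.90, interval 0.697 to 17.0), nor did Reg3a and Reg2.

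The level of a member also differed between protocols in the same tissue. In small intestine the RPKM by cDNA fragmentation over that by RNA fragmentation was 27.4 for Reg3b, 19.8 for Reg4, 12.0 for Reg3g, 3.99 for Reg3a and 1.29 for Reg1. Among 8702 genes with at least 100 reads in the former and 10 in the latter the median was 0.863, with 5% of genes above 5.33. Among the 671 of these genes with 500 to 1100 exon bases, the range that holds the 7 members, the median was 3.18 and 5% lay above 12.2. In colon the ratio was 56.1 for Reg4, 29.3 for Reg1, 5.75 for Reg3a, 4.74 for Reg3b and 1.61 for Reg3g, against a median of 2.90 and an upper 5% from 13.7 for 852 genes of that length. Reg4 lay above 98.8% and 99.9% of the genes of that length in small intestine and colon, and Reg3b above 99.1% and 71.1%. Reg3g lay above 94.8% and 27.2%, and Reg1 above 18.8% and 99.3%. In colon by RNA fragmentation Reg1 had 8 reads and Reg3a 3 reads, fewer than the 10 asked of those genes. Their ratios in colon are thus set against genes chosen by a minimum that they do not meet. Ratios within a protocol, and not levels across protocols, are therefore given above for the tissues.

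Reads covered the members unevenly, and differently by protocol. Exon 1 of Reg1, Reg2, Reg3b and Reg3g has 25 to 27 bases and holds no window of 35 bases, so no read could be placed inside it. In small intestine by cDNA fragmentation the last exon held 30.4% of the reads of Reg3b and 44.1% of those of Reg3g. It held 33.4% of the reads of Reg1 and 52.7% of those of Reg4. The last exon has 234 of the 563 windows of Reg3b and 251 of the 577 of Reg3g. It has 234 of the 574 windows of Reg1 and 417 of the 817 of Reg4. These read shares were thus below the share of windows for Reg3b and Reg1, and close to it for Reg3g and Reg4. By RNA fragmentation 72.4% of the reads of Reg3g in small intestine and 67.7% in colon fell in the last exon, which is coding and 3′ UTR, whereas for Reg3b these shares were 33.5% and 37.5%. Exon 3 of Reg1 held 45.2% of its reads in small intestine by RNA fragmentation and 16.7% by cDNA fragmentation.

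**Figure D5:**
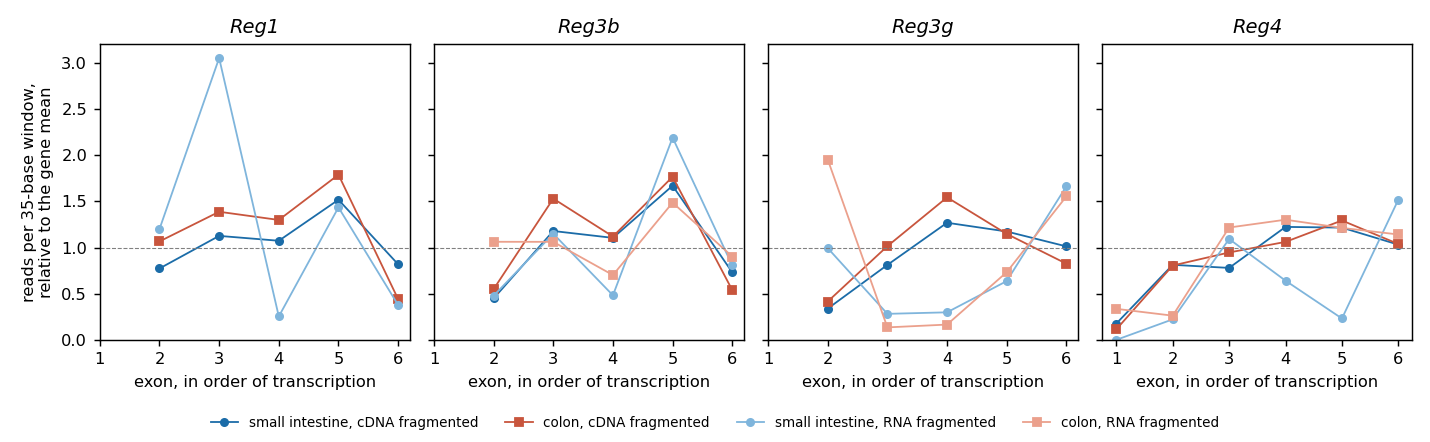
Reads per 35-base window of each exon, divided by the mean over all windows of the gene, for Reg1, Reg3b, Reg3g and Reg4; libraries with fewer than 40 reads of a gene are left out and the dashed line marks the gene mean. By RNA fragmentation Reg3g is highest in exons 2 and 6 and Reg1 in exon 3 in small intestine.

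Reads of the RNA fragmented libraries keep the strand. In small intestine all reads of the 7 members lay on the strand of the gene, and in colon all did except 2 of the 8 reads of Reg1. The cDNA fragmented libraries do not keep it, and 47.0% of the reads of Reg3b and 46.3% of those of Reg3g in small intestine lay on the strand of the gene, compared with 48.4% over all genes. No start point held over 0.651% of the reads of a member that had more than 1000 reads by cDNA fragmentation, where the 325503 reads of Reg3b began at 1157 start points.

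Genes linked to the Reg3 lectins were counted by the same rule, which 2.15% to 4.81% of all genes passed in a given direction and protocol. A list of 15 genes held IL-22, IL-17 and gp130 signalling together with a putative receptor of Reg proteins. Of these, 0 passed the rule in either direction by cDNA fragmentation, and by RNA fragmentation 1 passed it towards small intestine and 0 towards colon. The gene that passed was Socs3, a feedback inhibitor of STAT3 signalling named here after its values were seen. It had 214 and 66 reads in small intestine and colon by cDNA fragmentation (ratio 0.280, not past the rule) and 49 and 6 reads by RNA fragmentation (ratio 0.0717). On the log2 scale the list had a median of -0.05 and 0.00 in the same order of protocols. Stat3, the transcription factor of IL-22 signalling, was at 26.6 and 21.5 RPKM in small intestine and colon by cDNA fragmentation and at 41.4 and 50.2 RPKM by RNA fragmentation. The co-receptor Il10rb was at 66.2 and 43.0 RPKM and at 54.4 and 55.9 RPKM, and the receptor Il17rc at 5.50 and 6.14 RPKM and at 41.3 and 27.6 RPKM. Il22 itself had 0 reads in all 4 libraries. Of 8 genes of microbial sensing, 1 was higher in colon by cDNA fragmentation and 2 by RNA fragmentation. The receptor Tlr2 was higher in colon in both (1.29 and 9.83 RPKM, 1.03 and 25.8 RPKM). The adaptors Myd88 (6.00 and 9.80 RPKM, 15.5 and 23.4 RPKM) and Ticam1 (13.91 and 10.98 RPKM, 37.93 and 27.72 RPKM) were not past the rule.

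Of 15 other epithelial genes known to respond to IL-22 or inflammation, 6 were called higher in colon and 1 in small intestine in each protocol, beside 2.53% and 2.15% of all genes by cDNA fragmentation and 4.81% and 2.78% by RNA fragmentation. On the log2 scale this list had a median of -0.14 by cDNA and of 1.53 by RNA fragmentation. Saa1, an acute phase protein, was at 29.1 RPKM in small intestine and 769 RPKM in colon by cDNA fragmentation, and at 2.43 and 279.9 RPKM by RNA fragmentation. Retnlb, an antibacterial protein of goblet cells, was at 0.256 and 238 RPKM and, by RNA fragmentation, at 0 reads and 98.0 RPKM. Pigr, the transporter of IgA, was not past the rule (1120 and 541 RPKM, 768 and 534 RPKM). Among 13 other C-type lectins 3 were higher in small intestine by cDNA fragmentation and 0 by RNA fragmentation. The 3 were Mbl2, a mannose-binding lectin, Clec2e and, named after its values were seen, Clec7a. Mbl2 had 3689 and 0 reads, then 10 and 2 reads by RNA fragmentation. Clec2e was at 143 and 39.0 RPKM, then 92.5 and 30.7 RPKM. Clec7a was at 7.501 and 1.08 RPKM, then 10.36 and 8.081 RPKM. Clec2h, the lectin with the highest level, was not past the rule (679.5 and 255 RPKM, then 540.5 and 204 RPKM).

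Genes with the most similar pattern were sought by the distance of log2 (RPKM + 1), centred on the mean of each gene, over the 4 libraries and among 11190 genes with at least 100 reads in any library. The nearest to Reg3g was Mmp7, a protease of Paneth cells, at a distance of 0.64, followed by Gip and Gzma. The nearest to Reg3a were Rbp2 (0.49), Ggt1 and Slc7a9, and those to Reg3b were Tm4sf4 (0.95), Ccl5 and Ubd. Reg1 had no gene as close, with Fabp6 at 1.85, Reg3a at 2.23 and Prap1 at 2.31. For Reg4 they were Uqcr10 (0.88), Pf4 and Siva1, and for Reg2 they were Msx2 (0.62), Csnk1e and Pbp2. Reg3a was the gene at rank 14 and Reg3b that at rank 30 from Reg3g (distances 1.38 and 1.81), and Reg3g was at rank 11 from Reg3b, so that they too were among the nearer genes. With 4 libraries, 1 per group, such distances describe the shape of 4 values only.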

How the data were processed

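The authors matched 35 colors per SOLiD read to RefSeq exons of mm9 and to exon-exon junctions with up to 3 color mismatches, and deposited the reads with a single placement as positions, strands and mismatches, without normalized values. They also deposited exon and junction tables holding positions and reports holding numbers of reads. The methods of the study describe a matching to the whole genome, and the software version of this deposited matching to exons is not given in the sources used here. Uniquely placed reads counted here equalled those of the reports, which list 77504263, 83302412, 36419942 and 37466674 reads in all. The study lists more reads for its RNA fragmented protocol than these reports do.

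Reads were counted on the exons of each gene, with 3 bases of tolerance at exon ends, and divided by exon length and by 1000000 uniquely placed reads of the library (RPKM). Gene symbols and structure were taken from GENCODE M1 by overlap with the deposited exons. Intervals at the 95% level were exact Poisson for levels and exact Clopper-Pearson for ratios, and 0 reads were drawn at the level of 3 reads in figures. Reads amplified by PCR are not independent molecules. The 3-fold rule added a penalty of 1 RPKM to the divisor. No test was run. The counting rule was tried on simulated data with independent reads. These held no amplified copies and no spread between animals, so they do not show how the rule behaves with either. Python 3.11.15, numpy 2.4.6, pandas 2.3.3, scipy 1.17.1, numba 0.67.0 and Biopython 1.88 were used.

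Members and gene lists were chosen with earlier results of these data known. All 7 members were named. Of each list at most the 3 genes highest in any library (for acinar genes also the 4 with most reads) could be named, of which some are given within the sums and counts of their list only, and the 3 genes nearest to each member with at least 100 reads were named. Exceptions are marked. Alternatives were at most 1 mismatch, start points, median-of-ratios scaling, added junctions, the strand of the gene, at least 10 reads, a left-out start point, a penalty of 0.1 and a 2-fold threshold.

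Of 4904 junction placements on the members 99.1% had 10 or fewer bases on the shorter side, so exon pairs were not read from them.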

Additional observations from a re-analysis of the deposited data

Results flagged for a closer look

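For Reg2 and Reg3d the sign of the difference between colon and small intestine was opposite in the protocols, with 1 library per tissue. Reg2 was higher in colon by 8.49 RPKM by cDNA fragmentation, whereas colon minus small intestine was -0.71 RPKM by RNA fragmentation, which rests on 1 read against 0. For Reg3d the differences were 0.0288 and -1.89 RPKM, and they rest on 14 and 16 reads and on 3 and 0 reads. The difference between protocols was not tested for either gene.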

How the results depend on the processing

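The labels give no replicate numbers, so no replicate block was fitted, and the protocols were kept side by side and not used as pairs. With 1 library per tissue and protocol no replicate could be left out. The 6 calls by cDNA fragmentation (4 higher in small intestine, 2 in colon) and the 4 by RNA fragmentation were met by the same members under all alternatives except start points, a penalty of 0.1 RPKM and a threshold of 2-fold. With start points in place of reads 2 members passed by cDNA fragmentation, 1 in each direction (1.92% and 2.82% of all genes in small intestine and colon), and the ratio of colon to small intestine of Reg4 turned to 0.990. By construction this count cannot exceed the positions in a gene, and Reg3b had 1157 start points from 325503 reads. By RNA fragmentation 5 members passed with start points (2.68% of all genes) and 6 with the smaller penalty (5.88%), all higher in small intestine, the added ones resting on 1 and 3 reads of Reg2 and Reg3d. With a threshold of 2-fold, 1 member (Reg4) was higher in colon by RNA fragmentation (11.3% of all genes). Median-of-ratios scaling shifted all ratios of colon to small intestine by -0.40 (cDNA) and -0.34 (RNA) on the log2 scale and kept the calls. Of 71 ratios of single members under alternatives that can change a ratio (the filter of 10 reads cannot) 53 stayed within the counting interval, 17 left it without a change of direction and 1 of a called member (Reg4, above) turned. The ratio of Reg3d by cDNA fragmentation, 1.04 and not called, crossed 1 within its interval in 3 settings, at 0.746 (at most 1 mismatch), 0.783 (median-of-ratios) and 0.908 (strand of the gene). The ratios of Reg3b to Reg3g were also computed under settings chosen after seeing the data. Depth limits Reg2 and Reg3d in all libraries but one for Reg2, and Reg1 and Reg3a in colon by RNA fragmentation.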
